A study of Homo sapiens with 6 samples.

Results

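The miRNAs that share the seed core of miR-16 and miR-107 were followed in LX-2, a human line of immortalized hepatic stellate cells, grown alone or beside mesenchymal stem cells of human umbilical cord (HUC-MSCs). The group was taken as 9 named mature miRNAs, matched by name in the deposited tables, and 8 of the 9 were listed among 463 distinct mature sequences, while miR-497-5p was unlisted. All LX-2 cells had been stimulated with TGF-β1 at 10 ng/mL, for 24 h by the sample labels and for 48 h by the methods. In the single culture group (3 libraries) LX-2 cells grew in the lower chamber with no cells above them, and in the co-culture group (3 libraries) HUC-MSCs shared their medium through a porous membrane for 48 h. LX-2 is a single line without the hepatocytes and other cells of a liver, and libraries of HUC-MSCs themselves were not analysed here. Small RNA was sequenced and counted as tags per mature miRNA, and the comparison asks whether the HUC-MSCs changed the miRNA content of the activated stellate cells.

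A miRNA finds its target mRNAs mainly through its seed, the bases near its 5′ end, so miRNAs with the same seed can repress many of the same mRNAs. The miR-15/16 branch is known for restraining the cell cycle and for repressing BCL2, an inhibitor of apoptosis, and in rat stellate cells miR-15b and miR-16 have been reported to fall during activation. The branch of miR-103 and miR-107 is encoded within pantothenate kinase genes and is known for repressing DICER1, the enzyme that cuts miRNA precursors, and, in mice, for effects on insulin sensitivity.

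The mature sequences are shown because the grouping rests on them, with the seed, bases 2 to 8 counted from the 5′ end, in capitals. The first 7 miRNAs carry the shared core AGCAGC at bases 2 to 7, and the last 2 carry it at bases 1 to 6.
miR-15a-5p: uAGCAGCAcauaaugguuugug
miR-15b-5p: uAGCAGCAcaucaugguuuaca
miR-16-5p: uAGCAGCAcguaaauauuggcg
miR-195-5p: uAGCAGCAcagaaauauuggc
miR-424-5p: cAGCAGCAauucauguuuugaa
miR-497-5p: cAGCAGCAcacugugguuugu
miR-503-5p: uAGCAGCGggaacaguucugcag
miR-103a-3p: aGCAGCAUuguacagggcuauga
miR-107: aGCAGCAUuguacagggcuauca

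The 8 listed sequences are those of the deposited table and equal the RefSeq entries (GRCh38.p14), and that of miR-497-5p is from RefSeq alone. The seed AGCAGCA is shared by 6 members, AGCAGCG is found in miR-503-5p, and GCAGCAU in miR-103a-3p and miR-107. miR-103a-3p and miR-107 are identical at 22 of 23 bases and differ by G22C, with miR-103a-3p first and positions counted from the 5′ end. A tag that ends before base 22 therefore cannot be assigned to either, and the sources used here do not say how such tags were counted. miR-16-5p and miR-195-5p are identical at 19 of 21 compared bases and differ by G10A and U11G, with miR-16-5p first. Of 2351 distinct human mature sequences in the RefSeq table, 11 carry the core at these positions, namely the 9 members, miR-646 and miR-6838-5p, and the last 2 were unlisted. No listed sequence outside the group carried the core at these positions, and none of the authors' own names, which are built from a chromosome and a number, belonged to a form of a member.

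The members come from 11 precursors, given here in GRCh38.p14 with gene overlaps from GENCODE release 29. MIR15B (chromosome 3, 160404588 to 160404685) and MIR16-2 (chromosome 3, 160404745 to 160404825) lie 59 bases apart in an intron of SMC4, which encodes a condensin subunit. MIR15A (chromosome 13, 50049119 to 50049201) and MIR16-1 (chromosome 13, 50048973 to 50049061) lie 57 bases apart in the noncoding gene DLEU2, the former overlapping an exon and the latter in an intron. MIR195 (chromosome 17, 7017615 to 7017701) and MIR497 (chromosome 17, 7017911 to 7018022) overlap exons of the noncoding gene MIR497HG. MIR424 (chromosome X, 134546614 to 134546711) and MIR503 (chromosome X, 134546328 to 134546398) lie in MIR503HG, a long noncoding RNA gene. MIR103A1 (chromosome 5, 168560896 to 168560973), MIR103A2 (chromosome 20, 3917494 to 3917571) and MIR107 (chromosome 10, 89592747 to 89592827) lie in introns of PANK3, PANK2 and PANK1. miR-16-5p and miR-103a-3p each have a pair of source genes with an identical mature product, whose tags cannot be told apart.

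Total tag counts were 43956 to 209043 in single culture and 325037 to 604418 in co-culture, and a blank in the table stands for under 2 tags. Forms of miR-21-5p took 37.1% to 56.4% of the tags in single culture and 75.0% to 81.2% in co-culture. Counts were therefore scaled with TMM, which sets the level of most miRNAs as the reference, and are given as CPM, the tag count relative to the scaled library size. Across 182 sequences, log2 CPM in library 1 of single culture had a correlation of 0.965 to 0.978 with the co-culture libraries and of 0.860 and 0.897 with the other libraries of its own group. Those other libraries, 2 and 3, had the fewest tags and correlated at 0.843 with each other and at 0.815 to 0.889 with co-culture. The fold changes of the 3 tested members are also given without library 1 of single culture. Libraries are named by the number in their column name. Of 6 miRNAs typical of stellate or mesenchymal cells 5 were listed, though miR-21-5p, which many cell types express, held most of these tags, and miR-214-3p was unlisted. Of the others, miR-143-3p had at most 310 tags in a library, and miR-145-5p, miR-199a-3p and miR-199a-5p at most 6, 4 and 8. The hepatocyte miRNA miR-122-5p, 6 blood miRNAs including miR-451a, and 4 epithelial miRNAs were unlisted, while the endothelial miRNA miR-126-3p had 8 to 53 tags in single culture and 46 to 68 in co-culture.

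In these cells the group was mostly miR-103a-3p. Over the 6 libraries the 8 listed members had 1907 tags, of which miR-103a-3p held 65.2%, miR-15b-5p 19.7% and miR-16-5p 12.2%. The other 5 listed members had 55 tags together. All members are 21 to 23 nt and a tag stands for a whole molecule, but the efficiency with which each sequence enters a library is not known. miR-103a-3p made up 60.2% to 72.7% of the members' tags in each library, and it ranked 35th to 43rd by tags among all sequences. miR-15b-5p ranked 61st to 91st and miR-16-5p 91st to 114th. By seed, GCAGCAU miRNAs had 1261 tags, AGCAGCA miRNAs 642 and AGCAGCG 4.

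The share of the whole library taken by the group was lower in co-culture, and the share of the library without miR-21-5p was not. Of all tags, members took 0.225%, 0.234% and 0.208% in single culture libraries 1, 2 and 3, and 0.105%, 0.0824% and 0.0941% in co-culture libraries 1, 2 and 3. The groups did not overlap on this measure. Of tags other than miR-21-5p forms, members took 0.515%, 0.389% and 0.331% without HUC-MSCs and 0.419%, 0.437% and 0.499% with them, and here the groups overlapped. The means were 0.223% ± 0.0132 and 0.0937% ± 0.0111 of all tags, and 0.412% ± 0.0942 and 0.452% ± 0.0421 of the remaining tags (SD, n = 3 in each, single culture first). After TMM scaling the members summed to 1551.4, 1599.1 and 1470.5 CPM in single culture libraries 1, 2 and 3. In co-culture the sums were 1320.8, 1329.6 and 1411.6 CPM, each lower than every single culture sum. No test was made on these shares or sums, and a share of tags gives neither the number of cells nor the RNA per cell.

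**Figure D1:**
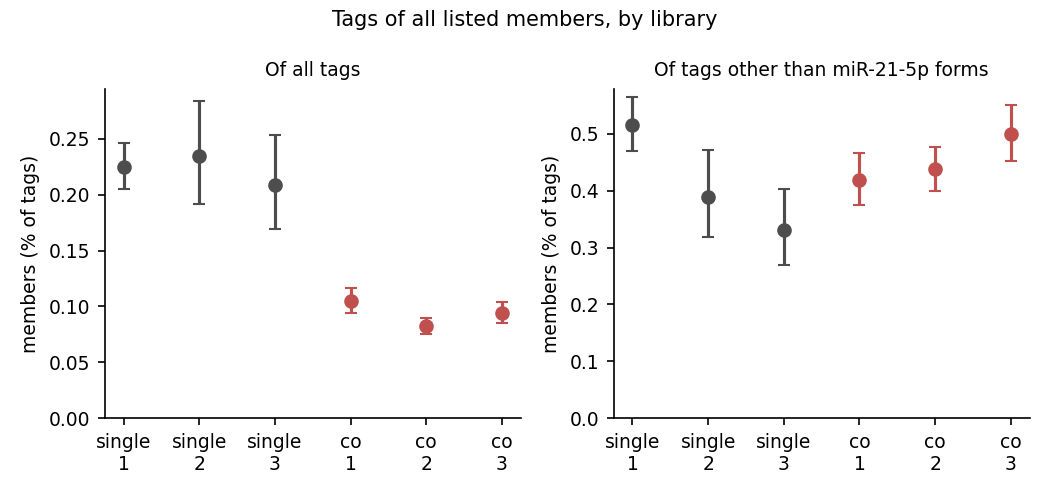
Share of tags (%) that belong to the 8 listed members in each library, of all tags (left) and of tags other than miR-21-5p forms (right), in single culture (grey) and co-culture (red), with bars for 95% exact binomial intervals that cover counting error only. On the left the single culture libraries lie at 0.208% to 0.234% and the co-culture libraries at 0.0824% to 0.105%, and on the right the groups overlap.

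Only miR-103a-3p, miR-15b-5p and miR-16-5p had at least 10 tags in at least 3 libraries and were tested with edgeR together with all other such sequences, 182 in total. None of the 3 passed an adjusted p of 0.05, and none had an unadjusted p under 0.05 in this fit (25.3% of all tested sequences had). Of all tested sequences edgeR called 4.40%, with 2.20% higher and 2.20% lower in co-culture. DESeq2, and limma on the authors' normalized values, also called none of the 3, beside 22 and 18 of all 182 sequences. In edgeR the median log2 fold change of the 3 members was -0.21, beside -0.04 over all tested sequences.

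miR-103a-3p was the member with the least spread. Its single culture libraries 1, 2 and 3 held 320, 62 and 72 tags, or 1056, 963 and 1069 CPM. Its co-culture libraries held 220, 315 and 255 tags, or 855, 841 and 907 CPM. Every co-culture library was lower than every single culture library, a separation that 36.3% of all tested sequences showed in either direction. The mean was 1029 ± 58.3 CPM without HUC-MSCs and 867 ± 34.6 CPM with them (SD, n = 3 per group). The log2 fold change was -0.25 (standard error 0.11, 95% interval -0.51 to 0.01, adjusted p = 0.205 from edgeR), which did not pass the test. Without library 1 of single culture it was -0.25, and with any 1 of the 6 libraries dropped it lay between -0.30 and -0.23. miR-103a-3p had an unadjusted p under 0.05 in the edgeR fits of sequences with at least 50 counts, of known miRNAs and of sequences of at least 21 nt, where its log2 fold change was -0.32, -0.32 and -0.34 (adjusted p = 0.0507, adjusted p = 0.129 and adjusted p = 0.0809).

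miR-15b-5p, which shares a transcript with miR-16 on chromosome 3, varied most in single culture. Libraries 1, 2 and 3 held 85, 30 and 14 tags in single culture, or 281, 466 and 208 CPM, against 63, 110 and 74 tags in co-culture, or 245, 294 and 263 CPM. The co-culture libraries lay inside the range of the single culture libraries. The log2 fold change was -0.21 (standard error 0.26, 95% interval -0.83 to 0.41, adjusted p = 0.668 from edgeR). It was -0.33 without library 1 of single culture and 0.07 without library 2, whose 30 tags have an exact Poisson interval of 20.2 to 42.8 tags for counting error alone.

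miR-16-5p had 52, 8 and 11 tags in single culture libraries 1, 2 and 3, or 172, 124 and 163 CPM. It had 47, 57 and 57 tags in co-culture, or 183, 152 and 203 CPM. The groups overlapped, with library 2 lowest in each. The log2 fold change was 0.17 (standard error 0.30, 95% interval -0.54 to 0.88, adjusted p = 0.767 from edgeR). It was 0.28 without library 1 of single culture and also without library 2 of co-culture, and lower, at 0.0771 and 0.0667, without library 2 of single culture and library 3 of co-culture. The intervals of miR-15b-5p and miR-16-5p each span more than 1 log2 unit.

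**Figure D2:**
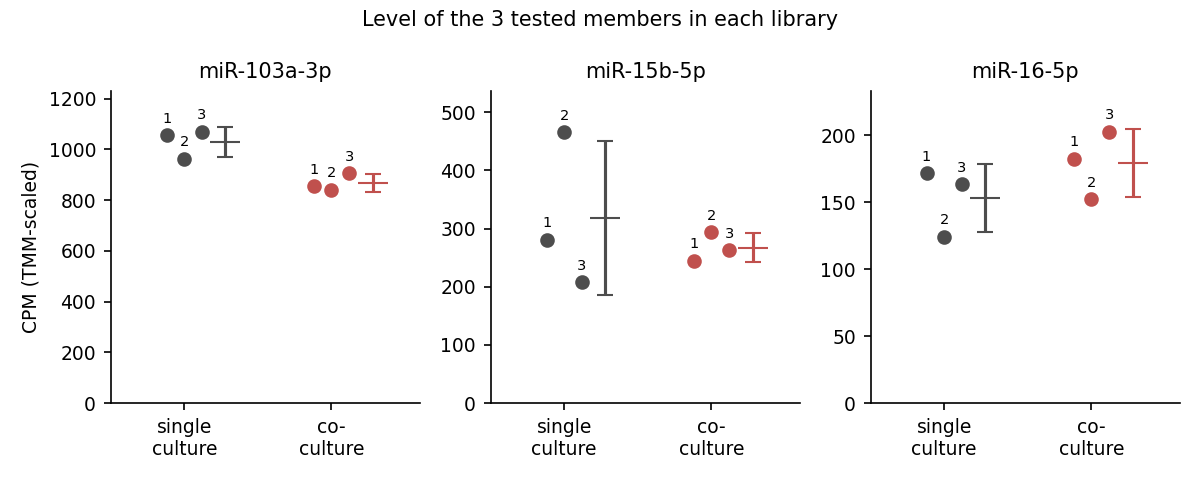
CPM after TMM scaling for the 3 tested members, with a point for each library (its number above it) and the mean ± SD of each group (n = 3) beside the points. The co-culture libraries (red) lie below the single culture libraries (grey) for miR-103a-3p, at 841 to 907 against 963 to 1069 CPM, and the groups overlap for miR-15b-5p and miR-16-5p.

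The size of these values, and for miR-15b-5p and miR-16-5p also their sign, depended on the scaling, while miR-103a-3p stayed negative under each of the 5 scalings tried. With library size alone as the scaling, the log2 fold change of miR-103a-3p was -1.31, that of miR-15b-5p -1.29 and that of miR-16-5p -0.89, and all 3 passed in edgeR (adjusted p = 0.00153, adjusted p = 0.00455 and adjusted p = 0.0115), but the median of all tested sequences was then -1.11 and 140 of 182 were called. miR-16-5p thus turned from 0.17 to -0.89, and stood above the median of all sequences under both scalings. With upper-quartile scaling the median of all was 0.19, and the log2 fold change was -0.0063 for miR-103a-3p and 0.0317 for miR-15b-5p.

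**Figure D3:**
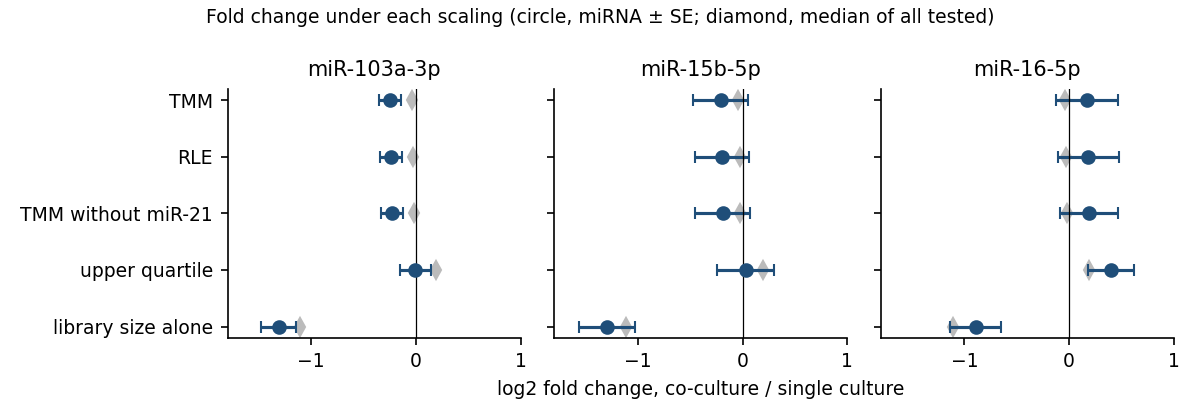
Log2 fold change of co-culture against single culture for the 3 tested members (circles, ± standard error from edgeR) under 5 scalings, with the median of all 182 tested sequences under the same scaling (diamonds). The circles follow the diamonds, from medians of -0.04 with TMM to -1.11 with library size alone.

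A ratio within a library does not depend on the scaling. For miR-103a-3p to miR-16-5p, a member of each branch, the ratio of tags was 6.15, 7.75 and 6.55 in single culture libraries 1, 2 and 3 and 4.68, 5.53 and 4.47 in co-culture. Each co-culture library was lower, and the mean log2 ratio went from 2.76 ± 0.17 without HUC-MSCs to 2.28 ± 0.16 with them (SD, n = 3 per group), a difference of -0.48. The exact two-sided permutation test gave p = 0.1, the smallest that 3 against 3 libraries allow, and 0.2 after Benjamini-Hochberg adjustment over 2 ratios. For miR-15b-5p to miR-16-5p the ratio was 1.63, 3.75 and 1.27 without HUC-MSCs and 1.34, 1.93 and 1.30 with them, with overlapping groups (exact permutation p = 0.7, adjusted 0.7, n = 3 in each). This ratio rested on library 2 of single culture, without which the difference in log2 ratio turned from -0.41 to 0.05. The other 3 ratios planned could not be tested because a member was blank in at least 1 library.

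miR-107 was scarce beside its near-identical relative. It had 6, 3 and 2 tags in single culture libraries 1, 2 and 3, and a blank, 3 and 3 tags in co-culture. Of the tags of miR-107 and miR-103a-3p together, miR-107 was 1.84%, 4.62% and 2.70% in single culture against 0.943% and 1.16% in co-culture libraries 2 and 3. Co-culture library 1 had a blank beside 220 tags of miR-103a-3p, and a blank taken as 1 tag would give 0.452%. The groups did not overlap in these shares with the blank taken as 0 or 1 tag, yet the exact binomial intervals of single libraries did, for example 0.678% to 3.96% in single culture library 1 and 0.195% to 2.73% in co-culture library 2. miR-107 stayed below the minimum count. In the edgeR fit with no minimum its log2 fold change was -1.98 (standard error 1.07, adjusted p = 0.394), and it did not pass. At its pooled single culture level of 25.3 CPM, from 11 tags, co-culture libraries 1, 2 and 3 would hold 6.51, 9.48 and 7.12 tags. These few tags neither show nor exclude a difference.

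The remaining members were at the edge of detection. miR-424-5p, reported to slow the cell cycle, had 3 tags in single culture library 1 and 5, 9 and 4 tags in co-culture libraries 1, 2 and 3. At its pooled co-culture level of 19.7 CPM, single culture libraries 2 and 3, where it was blank, would hold 1.27 and 1.33 tags. miR-15a-5p, from the chromosome 13 cluster that is often deleted in chronic lymphocytic leukaemia, had 4 tags in single culture library 1 and 2 in co-culture library 3. miR-195-5p, another inhibitor of the cell cycle, was listed only in co-culture libraries 1 and 2, with 5 and 2 tags, and miR-503-5p only in co-culture libraries 2 and 3, with 2 tags in each. At their pooled co-culture levels the deepest single culture library would hold 2.32 tags of miR-195-5p and 1.33 of miR-503-5p. With no minimum count, the adjusted p of these 4 was 0.573 to 0.700 in edgeR. Such counts neither show nor exclude a difference.

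The opposite arm of a precursor is a further product of the same gene. Of 18 opposite arms, cluster neighbours and wider relatives 7 were listed and 4 were tested, and none passed (median log2 fold change 0.43). For 3 of the 4 tested relatives the groups were separate (blanks as 0), beside 36.3% of all tested sequences, and in these 3 co-culture was higher. All 4 had under 10 tags in single culture libraries 2 and 3 and passed the minimum count through the other libraries. There 10 tags equal 155 and 149 CPM, against 26.7 to 38.8 CPM in co-culture. Neither this count nor the median is therefore read as a result. Sequences of the 3p products that follow are shown with bases 2 to 8 in capitals, since they carry none of the core.
miR-16-2-3p: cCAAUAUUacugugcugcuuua
miR-424-3p: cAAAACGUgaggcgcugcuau
chrX_24478: cAAAACGUgaggcgcugcuaua

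miR-16-2-3p, which comes from MIR16-2 alone, had 26, 5 and 6 tags in single culture libraries 1, 2 and 3 and 26, 42 and 32 in co-culture. Scaled, these were 85.8, 77.6 and 89.1 CPM without HUC-MSCs and 101, 112 and 114 CPM with them, every co-culture library being higher. The log2 fold change was 0.36 (standard error 0.24, adjusted p = 0.400 from edgeR; -0.71 with library size alone), and it did not pass. Its share of the tags of miR-16-2-3p and miR-16-5p together was 33.3%, 38.5% and 35.3% without HUC-MSCs and 35.6%, 42.4% and 36.0% with them, with overlapping groups. The opposite arm of MIR16-1, miR-16-1-3p, was unlisted. miR-15b-3p had 3 tags in single culture library 1 and 7, 6 and 4 in co-culture, and it was 2.27% of the pooled tags of both arms in single culture and 6.44% in co-culture, with exact binomial intervals of 0.471% to 6.50% and 3.80% to 10.1% for counting error only.

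MIR424 was read mainly from its 3p arm. miR-424-3p had 16, 3 and 4 tags in single culture libraries 1, 2 and 3 and 23, 25 and 26 in co-culture, or 46.6 to 59.4 CPM and 66.7 to 92.4 CPM. It did not pass (log2 fold change 0.63, standard error 0.28, adjusted p = 0.213 from edgeR). An author-named sequence, chrX_24478, extends miR-424-3p by 1 base at the 3′ end. It was found by searching the precursors of members and relatives after the values had been seen. It had 12 and 2 tags in single culture libraries 1 and 2, a blank in library 3, and 23, 30 and 21 tags in co-culture, and did not pass (log2 fold change 1.38, standard error 0.46, adjusted p = 0.115 from edgeR), although it did with no minimum count (adjusted p = 0.0269). Its log2 fold change was 0.33 with library size alone (adjusted p = 0.564), 2.35 without library 1 of single culture (adjusted p = 0.0504), and 1.09 to 1.45 with any other 1 library left out. Both forms together had 28, 5 and 4 tags without HUC-MSCs and 46, 55 and 47 with them, or 76.5 ± 16.5 and 164 ± 16.1 CPM (SD, n = 3 per group). Their log2 fold change was 0.99 (standard error 0.21, adjusted p = 0.0509 from edgeR), and -0.07 with library size alone. With both forms counted, the member miR-424-5p made up 18 of 166 tags of MIR424 in co-culture, or 10.8% (exact binomial interval 6.55% to 16.6%), and 3 of 40 in single culture, or 7.50% (1.57% to 20.4%).

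**Figure D4:**
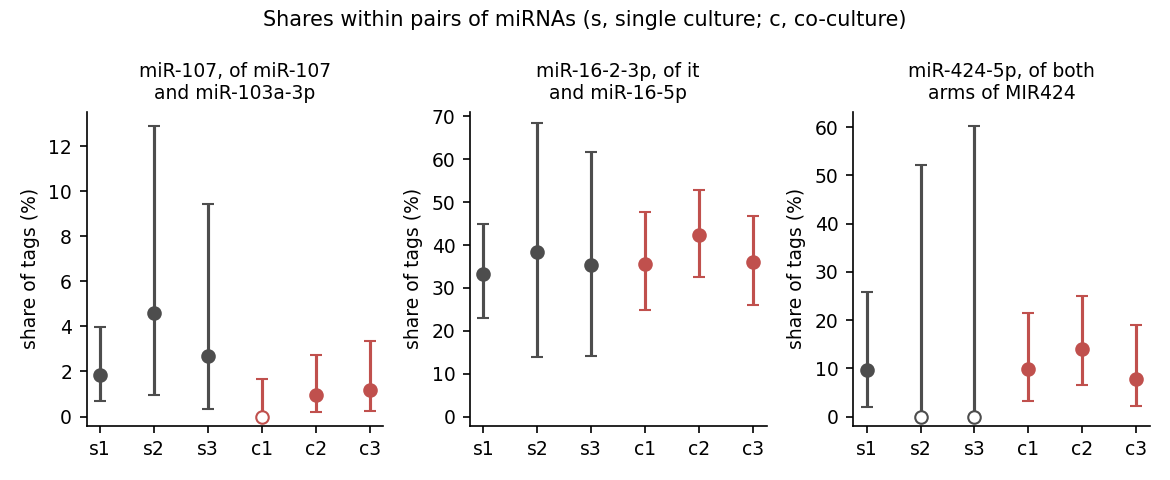
Share of tags (%) of miR-107 among miR-107 and miR-103a-3p (left), of miR-16-2-3p among it and miR-16-5p (middle) and of miR-424-5p among all MIR424 tags (right, with chrX_24478), by library (s, single culture; c, co-culture), with 95% exact binomial intervals and open points for blanks. miR-107 lies at 1.84% to 4.62% in single culture and at 0.943% and 1.16% in the co-culture libraries that list it, with overlapping intervals, and the middle shares lie at 33.3% to 42.4% in all 6 libraries.

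Further along the X chromosome cluster, products of the neighbouring precursors were more abundant than miR-503-5p. miR-450b-5p had 38, 7 and 6 tags without HUC-MSCs and 23, 36 and 34 with them, with overlapping groups in CPM and did not pass (log2 fold change -0.15, standard error 0.22, adjusted p = 0.731 from edgeR). miR-542-3p had 10 and 2 tags in single culture libraries 1 and 2 and 9, 16 and 10 in co-culture (log2 fold change 0.51, standard error 0.50, adjusted p = 0.567 from edgeR, and 0.22 without library 3 of single culture). miR-450a-5p had at most 7 tags, whereas chrX_24471, which is the same sequence with 2 bases fewer at its 3′ end and was found by the same search, had 29, 6 and 4 tags without HUC-MSCs and 28, 39 and 31 with them. It did not pass either (log2 fold change 0.30, standard error 0.29, adjusted p = 0.560 from edgeR), with 0.18 without library 3 of single culture and 0.48 without library 1. The member miR-503-5p had 4 tags over the 6 libraries.

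The 3 tested members did not vary alike across libraries. Over the 6 libraries, the sequences whose log2 CPM was most like that of miR-103a-3p, among 181 others, were miR-374a-5p (Pearson r = 0.956), miR-221-3p (0.956) and miR-335-3p (0.927). Those most like miR-16-5p were miR-374a-3p (0.888), miR-126-3p (0.879) and miR-101-3p (0.875). Between members, r was -0.75 for miR-15b-5p and miR-16-5p, -0.12 for miR-15b-5p and miR-103a-3p and -0.13 for miR-16-5p and miR-103a-3p. In single culture library 2 miR-15b-5p was at its highest, 466 CPM from 30 tags, and miR-16-5p at its lowest, 124 CPM from 8 tags. The r of this pair without that library was not computed. All these r values describe 6 points that share library depth and scaling, and they include any difference between the groups. The sequences most like a member were picked for their high r among 181, so the height of r is not read as a result.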

How the data were processed

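Total RNA of LX-2 cells was isolated by the authors with TRIzol for Illumina small RNA libraries. Bowtie 0.12.2, hg18 and mm8 are named, without roles, in the notes of the submitters. The deposited raw tag counts per mature miRNA (520 rows, smallest count 2) were merged by sequence to 463, since rows of 1 sequence held identical counts. The authors' normalized tag counts, a scaled signal as deposited, entered an alternative only. The authors' fold changes, p-values and FDR were not used. The numbered columns were assigned to groups, not samples, by the group means that the authors deposited. In 520 of 520 rows these equalled the mean over the group's normalized columns, with 1 added to each value and blanks as 0. For the columns of the other group 14 rows matched. The assignment rests on values and not on sample names. There were 0 columns without a group.

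edgeR 4.0.16 in R 4.3.3 (quasi-likelihood test, TMM, at least 10 counts in 3 libraries, Benjamini-Hochberg adjustment over 182 sequences) was the main test, and the fit was tested on simulated data. Standard errors were derived from the fold change and p of the test. DESeq2 1.42.0 and limma 3.58.1 (log2 of the value plus 1) were alternatives, with other scalings, minimum counts, sequence sets, a replicate block and libraries left out. Ratios were tested with an exact permutation test in scipy 1.17.1. Total tags of 43956 to 604418 set the precision, where 2 tags equal 5.34 to 31.0 CPM. The exact binomial and Poisson intervals cover counting error only, and tags carry no molecular identifiers. The intervals of log2 fold changes rest on the standard errors from edgeR and so include the spread between libraries. The study describes its experiments as repeated, but the sources used here do not tie each library to a separate culture, so p-values measure only the spread between these libraries, which may be technical. No 2 libraries of a group were duplicates (chi-square per degree of freedom 3.46 to 144).

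Named were all 9 members, the listed ones among 18 opposite arms, neighbours and relatives, author-named forms, and the 3 sequences most like miR-16-5p and miR-103a-3p. The members and lists were chosen with earlier results of these data known. The 2 author-named products of MIR424 and MIR450A1 were added after their values were seen. RefSeq held 9 of the 9 members.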

Additional observations from a re-analysis of the deposited data

How the results depend on the processing

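The count of members past an adjusted p of 0.05 stayed at 0 under 17 of 18 alternatives and was 3 with library size alone. Each fit tested 3 members, except that with no minimum count, which tested 8. The count over all tested sequences, 8, was 140 with library size alone, 17 with upper-quartile scaling, 22 with DESeq2, 37 with no minimum count, 21 with a minimum of 50, 13 without the 2 single culture libraries of fewest tags, 18 with limma on the authors' normalized values and 0 to 43 with 1 library left out. Column numbers were tried as pairs: the replicate block gave 0 calls, and same-numbered libraries did not deviate together (r = -0.27, -0.08 and -0.15). With 3 libraries per group these values cannot decide whether the numbers pair the samples. No author-named form of a member was listed, so adding such forms could not be run.

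Signs turned as follows. With library size alone the log2 fold change was -0.89 for miR-16-5p, -0.71 for miR-16-2-3p, -0.44 for miR-424-3p (-0.0657 with chrX_24478 added), -0.56 for miR-542-3p and -0.77 for chrX_24471. With upper-quartile scaling it was 0.0317 for miR-15b-5p and 0.0843 for miR-450b-5p. With limma on the authors' normalized values it was -0.12 for miR-16-5p and -0.0016 for miR-16-2-3p, both above the median of -0.37 over all tested sequences. With 1 library left out, miR-15b-5p ran from -0.38 to 0.0707 (without library 2 of single culture), miR-450b-5p from -0.29 to 0.0263 (without library 1), and the difference in log2 ratio of miR-15b-5p to miR-16-5p from -0.73 to 0.0541 (without library 2), while that of miR-103a-3p to miR-16-5p ran from -0.57 to -0.38. The members' share was 0.412% in single culture and 0.452% in co-culture when miR-21-5p forms were left out of the total. The sign of miR-103a-3p was negative under each of its 18 alternatives, with adjusted p from 0.00153 to 0.974. Depth limits 5 of the 8 listed members, which had at most 9 tags in any library.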
